A study of Danio rerio with 6 samples.

Results

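Melanin synthesis and pigment cell genes were described in adult zebrafish, at night and by day, in 3 sources of RNA: the pineal gland, whole eyes, and a mixture of 8 further organs. The 10 symbols tyr, tyrp1a, tyrp1b, dct, pmela, pmelb, oca2, slc45a2, slc24a5 and mitfa were matched to the gene table with capitals ignored and a final a or b optional, which gave 11 of its 32105 genes. The symbol TYRP1 belonged to 2 of them and MITF to another 2. The symbols do not tell which TYRP1 gene is tyrp1a and which is tyrp1b, nor which MITF gene is mitfa. ENSDARG00000056151 is called the abundant and ENSDARG00000029204 the minor TYRP1 gene here, and ENSDARG00000003732 the first and ENSDARG00000037833 the second MITF gene. The other genes were TYR (ENSDARG00000039077), DCT (ENSDARG00000006008), pmela (ENSDARG00000091298), pmelb (ENSDARG00000033760), OCA2 (ENSDARG00000061303), SLC45A2 (ENSDARG00000002593) and SLC24A5 (ENSDARG00000024771).

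All fish were of the Tg(aanat2:EGFP) line, in which the aanat2 control regions drive green fluorescent protein in the pineal gland, were 0.5 to 1.5 years old and lived with 12 h of light per day. Poly-A RNA came from pools of 18 pineal glands or 6 whole eyes, and from a mixture of equal amounts of RNA of muscle, ovary, kidney, gill, liver, intestine, heart and brain, each from 4 to 8 fish. Each tissue had 1 library at mid-night (ZT18, hours after lights on) and 1 at mid-day (ZT6), so there were 6 libraries and no repeat of a tissue at one time. Between 7949224 and 15950819 reads stood behind the values of a library.

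Melanin is made from tyrosine in melanosomes, organelles of melanocytes (melanophores in fish) and of the retinal pigment epithelium, the dark layer behind the photoreceptors. Tyrosinase starts the pathway, the products of DCT and TYRP1 act on later intermediates, and PMEL proteins form the fibrils on which melanin is laid down. Transporters of the melanosome and related membranes (OCA2, SLC45A2, SLC24A5) set its internal conditions, and MITF is the transcription factor known for switching on many of these genes. In zebrafish, loss of mitfa removes the melanophores of the body but leaves the pigment epithelium of the eye dark.

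The labels of the tissues were set beside marker genes. The lists had been chosen with earlier results of these data known, so this was not an independent check. Of 9 pineal markers 8 were called higher in the pineal libraries than in the mixture and 1 was called lower. All 11 lens markers were higher in the eye and all 12 markers of the mixed organs were lower in the pineal gland, each against the mixture. With 1 eye library left out 4 lens markers were tested, and with 1 mixed library left out 7 markers of the organs. The markers not tested then had reached the minimum level only in the eye or only in the mixture. They were tested in the main fit because they were high there. Summed FPKM (fragments per kilobase of gene, scaled to the size of the library) of the skin list was 181 at night and 197 by day in the pineal gland, 2180 and 2620 in the eye, and 661 and 927 in mixed tissue. The erythrocyte list summed to 153 and 249 FPKM in the pineal gland, 101 and 118 in the eye, and 140 and 165 in mixed tissue. The photoreceptor list was higher than in mixed tissue in 16 of 18 tested genes in the pineal gland and in 18 of 18 in the eye. Of all tested genes, 16.4% were called higher than in mixed tissue in the pineal gland and 20.7% in the eye, and 30.1% were called lower in the pineal gland.

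All 11 pigment genes passed the filter of at least 1 FPKM in 2 or more libraries, but 4 of them did so through 1 tissue alone. OCA2, SLC45A2 and the minor TYRP1 gene reached 1 FPKM only in the eye libraries, and the first MITF gene only in the pineal libraries, so these 4 were tested because they were high there. The second MITF gene was the sole one at 1 FPKM or more in all 6 libraries. Summed over the 11 genes, the level was 95.1 FPKM at night and 55.7 by day in the pineal gland, 260.5 and 193.0 in the eye, and 5.51 and 5.85 in mixed tissue. In bulk RNA, fewer pigment cells and less RNA per cell cannot be told apart.

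**Figure D1:**
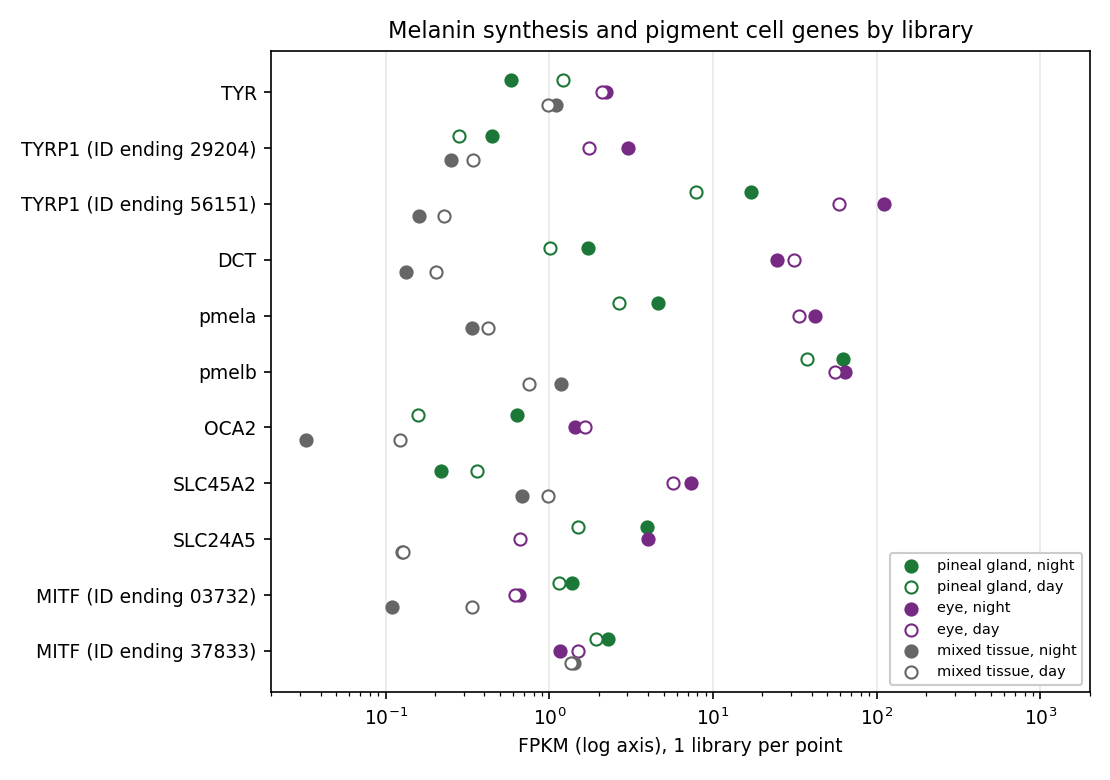
FPKM of the 11 genes in the 6 libraries, on a log axis; each point is 1 library, filled for night and open for day, and genes that share a symbol carry the end of their ID. The eye points lie furthest right for TYR, DCT, pmela, OCA2, SLC45A2 and both TYRP1 genes, while the pineal and eye points of pmelb lie between 37.6 and 63.5 FPKM.

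In the eye, both melanosome fibril genes, the abundant TYRP1 gene and DCT stood far above mixed tissue, while TYR did not pass the test. Of the 11 genes 8 were higher and 0 lower by limma (2-fold or more, with a Benjamini-Hochberg adjusted p under 0.05). Over all 21325 tested genes 20.7% were called higher in this comparison, 28.5% lower and 49.2% in either direction. For 10 of the 11 genes both eye libraries lay above both mixed libraries, as they did for 36.5% of all genes, and for 0 they lay below (47.1% of all genes). The median log2 difference was 1.36 over the 11 genes and -0.19 over all tested genes. Log2 differences were taken after adding 1 to each FPKM, so those of weakly expressed genes come out too small, and the error is the standard error (SE) of the model. Fewer genes were called without the eye night, the eye day or the mixed night library. Without either eye library only 8 of the 11 genes were tested, so the calls lost there include those of genes no longer tested. The number of called genes was 4 with a pseudocount of 5, where 29.3% of all tested genes were called in either direction. Of the 8 called genes 3 had reached the filter only in the eye, and with these left out 5 of 8 were called.

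The abundant TYRP1 gene was at 110 FPKM at night and 58.6 by day in the eye, against 0.159 and 0.226 in mixed tissue. It was the highest of the 11 genes in both eye libraries, and its log2 difference of 6.10 (SE 0.31, limma adjusted p 8.78e-05) was the largest of them. The 2 melanosome fibril genes followed. pmelb was at 63.5 FPKM at night and 55.9 by day in the eye, against 1.17 and 0.754 in mixed tissue, a log2 difference of 4.96 (SE 0.20, limma adjusted p 4.59e-05). pmela was at 42.1 and 33.3 FPKM in the eye, against 0.337 and 0.423 in mixed tissue, a log2 difference of 4.80 (SE 0.24). DCT, the dopachrome tautomerase gene, was at 24.6 FPKM at night and 31.2 by day in the eye, against 0.133 and 0.202 in mixed tissue, a log2 difference of 4.62 (SE 0.26). For these 4 genes the eye libraries did not overlap those of mixed tissue, and the call remained in every alternative processing in which the gene was tested.

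The transporter genes were lower in level than the fibril genes in the eye. SLC45A2 was at 7.35 FPKM at night and 5.72 by day in the eye, against 0.683 and 0.985 in mixed tissue, a log2 difference of 2.04 (SE 0.22) that lay just under 2-fold with a pseudocount of 5 (0.98). OCA2 was at 1.42 and 1.64 FPKM in the eye, against 0.0327 and 0.122 in mixed tissue, a log2 difference of 1.23 (SE 0.22, limma adjusted p 0.00479). The OCA2 call was lost without the mixed night library (adjusted p 0.0716). SLC24A5, a potassium-dependent sodium/calcium exchanger gene, was at 3.98 FPKM at night but 0.665 by day in the eye, against 0.125 and 0.127 in mixed tissue. Its log2 difference of 1.35 (SE 0.39, limma adjusted p 0.0253) was no longer called without the eye night library (0.81, adjusted p 0.132), without the mixed night library (adjusted p 0.189) or without a term for time (adjusted p 0.0752).

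TYR, the gene of the first enzyme, did not share the large excess of DCT and the abundant TYRP1 gene. It was at 2.22 FPKM at night and 2.09 by day in the eye, against 1.09 and 0.981 in mixed tissue. The log2 difference of 0.63 (SE 0.23, limma adjusted p 0.0524) was below 2-fold on the scale with 1 added to each FPKM. The eye libraries lay above those of mixed tissue, with FPKM ratios of 2.03 at night and 2.13 by day. The minor TYRP1 gene was at 3.02 and 1.75 FPKM in the eye, against 0.251 and 0.340 in mixed tissue, a log2 difference of 1.36 (SE 0.22, limma adjusted p 0.00319), a call lost without the mixed night library (adjusted p 0.0535). Neither MITF gene was called in the eye. The first was at 0.653 and 0.613 FPKM in the eye, against 0.110 and 0.335 in mixed tissue, and the second at 1.17 and 1.50 FPKM, against 1.42 and 1.36. Mixed tissue held 3 to 41 reads of any of the 11 genes in a library, and their highest level there was 1.42 FPKM.

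In the pineal gland, pmelb had the highest FPKM of the 11 genes in both libraries, 62.2 at night and 37.6 by day, beside 63.5 and 55.9 in the eye. By limma, 5 of the 11 genes were called above mixed tissue and 0 below it, where 16.4% of all tested genes were called higher, 30.1% lower and 46.5% in either direction. For 8 genes both pineal libraries lay above both mixed libraries, as for 33.7% of all genes, and for 1, SLC45A2, they lay below, as for 50.6% of all genes. The median log2 difference was 0.89 over the 11 genes and -0.28 over all tested genes. Both tissue comparisons share the mixed libraries. Each p-value rests on the departure of 6 pooled libraries from additive effects of tissue and time, with 2 residual degrees of freedom.

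pmelb was at 62.2 FPKM at night and 37.6 by day in the pineal gland, against 1.17 and 0.754 in mixed tissue. The log2 difference was 4.66 (SE 0.20, limma adjusted p 5.06e-05), and the pineal libraries held 1086 and 912 reads of the gene. The abundant TYRP1 gene came next, at 17.1 FPKM at night and 7.86 by day in the pineal gland, against 0.159 and 0.226 in mixed tissue, a log2 difference of 3.41 (SE 0.31, limma adjusted p 0.000483). These 2 were the only genes of the 11 whose mean over the pineal libraries exceeded 5 FPKM, and the calls of both remained in every alternative.

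The other 3 calls were of low genes. pmela was at 4.61 FPKM at night and 2.66 by day in the pineal gland, against 0.337 and 0.423 in mixed tissue, a log2 difference of 1.72 (SE 0.24, limma adjusted p 0.00219). SLC24A5 was at 3.96 and 1.49 FPKM in the pineal gland, against 0.125 and 0.127 in mixed tissue, a log2 difference of 1.64 (SE 0.39, limma adjusted p 0.0137). DCT was at 1.73 and 1.01 FPKM in the pineal gland, against 0.133 and 0.202 in mixed tissue, a log2 difference of 1.00 (SE 0.26, limma adjusted p 0.0191) that lay at the 2-fold threshold. Leaving out 1 library ended the SLC24A5 call without pineal night (adjusted p 0.0753), pineal day (0.0539) or mixed night (0.0943), and the DCT call without pineal night (0.140), mixed day (0.0828) or mixed night (0.124). Fewer genes were called without the pineal night, the pineal day or the mixed night library. The number was 2 with a pseudocount of 5, which also ended the pmela call. At that setting 26.6% of all tested genes were called in either direction.

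The remaining 6 genes did not pass in the pineal gland. The first MITF gene was at 1.38 FPKM at night and 1.15 by day, against 0.110 and 0.335 in mixed tissue. It had reached the filter only in the pineal libraries, so it was tested because it was high there. Its log2 difference of 0.89 (SE 0.19, limma adjusted p 0.00885) was below 2-fold on this scale, and it was called with a pseudocount of 0.1 (2.17), with quantile normalization (1.31), with voom on recovered reads (2.56) and without the mixed day library (1.07, adjusted p 0.049). TYR was at 0.582 and 1.21 FPKM in the pineal gland, against 1.09 and 0.981 in mixed tissue, so the libraries overlapped. SLC45A2 was at 0.216 and 0.363 FPKM in the pineal gland, against 0.683 and 0.985 in mixed tissue, a log2 difference of -0.51 (SE 0.22, limma adjusted p 0.10) that was called with a pseudocount of 0.1 (-1.27, adjusted p 0.0358). The sign of both TYR and SLC45A2 turned with quantile normalization, which moved the median of all genes in this comparison to 0.03. OCA2, the minor TYRP1 gene and the second MITF gene differed from mixed tissue by 0.35, 0.07 and 0.38 on the log2 scale (limma adjusted p 0.210, 0.787 and 0.152).

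Set directly against the eye, the pineal gland was lower in DCT, pmela, SLC45A2 and both TYRP1 genes, while the other 6 genes did not pass the test. By limma, 0 of the 11 genes were called above the eye and 5 below it, where 9.25% of all tested genes were called higher, 14.1% lower and 23.4% in either direction. Both pineal libraries lay above both eye libraries for 2 of the 11 genes, as for 30.3% of all genes, and below them for 7, as for 35.1% of all genes. SLC45A2 and the minor TYRP1 gene had reached the filter only in the eye, so they were tested because they were high there. With the 4 genes left out that had reached it in 1 of these tissues alone, 0 of 7 were called above the eye and 3 below it. The ratio of pineal to eye FPKM had a median over the 11 genes of 0.262 between the night libraries and 0.161 between the day libraries. Over all tested genes above 0 in both libraries the medians were 0.922 and 1.03. Intervals on ratios are 95% exact (Clopper-Pearson) intervals from the reads and cover counting error only.

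DCT had the lowest log2 difference, -3.62 (SE 0.26, limma adjusted p 0.000775). Its pineal level was 0.0703 of the eye level at night (interval 0.0456 to 0.104) and 0.0322 by day (0.0198 to 0.0496). pmela differed by -3.08 (SE 0.24, limma adjusted p 0.000995), with ratios of 0.110 at night (0.0901 to 0.132) and 0.0800 by day (0.0642 to 0.0986). The abundant TYRP1 gene differed by -2.69 (SE 0.31, limma adjusted p 0.00286), with ratios of 0.154 (0.136 to 0.175) and 0.134 (0.114 to 0.157). SLC45A2 differed by -2.54 (SE 0.22, limma adjusted p 0.00134), on 3 pineal reads at night and 7 by day. These 4 calls remained in every alternative in which the gene was tested. SLC45A2 was not tested without the eye day or the eye night library, so its call was not checked there. The minor TYRP1 gene differed by -1.29 (SE 0.22, limma adjusted p 0.00927), on 8 and 7 pineal reads, and was not called without the pineal day (adjusted p 0.0680) or the pineal night library (0.0753). Without the eye day or the eye night library 3 genes were called, and 3 of the 11 no longer passed the filter.

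OCA2 and TYR were also lower in both pineal libraries without passing the test. For OCA2 the ratio was 0.445 at night (0.285 to 0.675) and 0.0957 by day (0.0449 to 0.181), and the log2 difference was -0.88 (SE 0.22, limma adjusted p 0.0323), below 2-fold on this scale. voom on recovered reads called it at -2.31 (adjusted p 0.0398). The TYR ratio was 0.262 at night (0.114 to 0.532) and 0.579 by day (0.351 to 0.931), with a log2 difference of -0.75 (SE 0.23, limma adjusted p 0.0542).

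**Figure D2:**
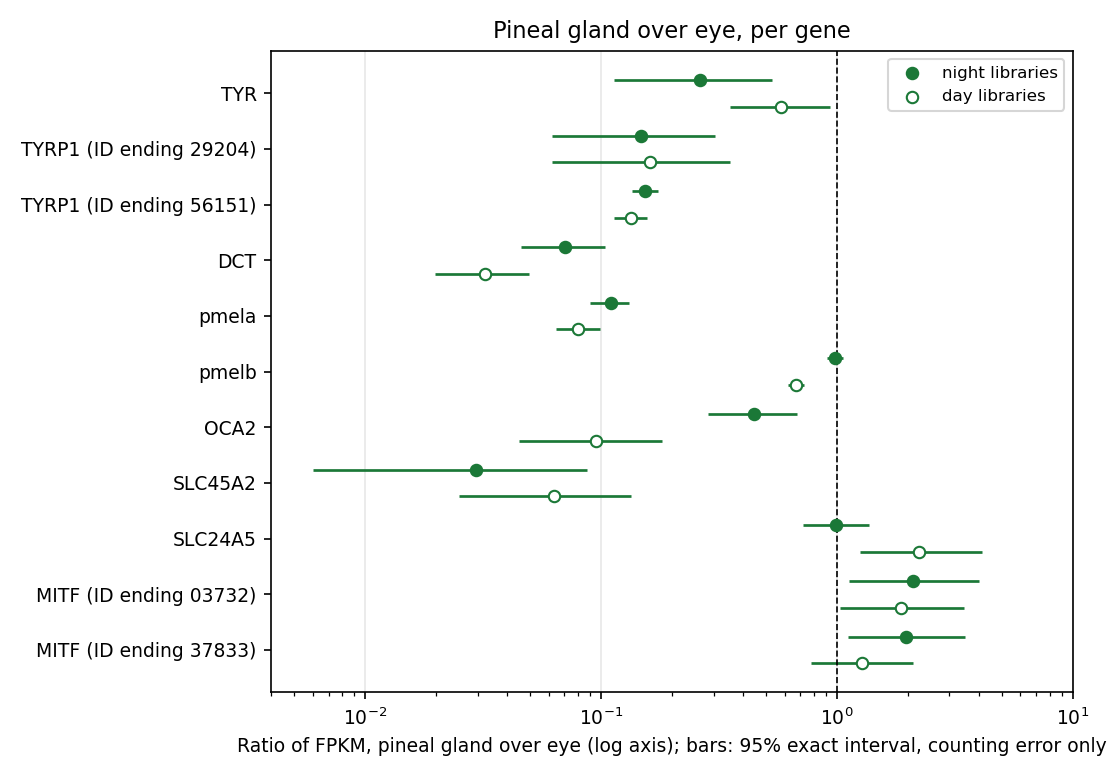
Ratio of FPKM in the pineal gland over the eye for the 11 genes, filled for the night and open for the day libraries, on a log axis with 95% exact intervals for counting error. DCT, pmela, SLC45A2 and both TYRP1 genes lie below 0.2 in both pairs of libraries, while pmelb at night (0.979) and SLC24A5 at night (0.994) lie at 1.

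pmelb stood apart from its paralog pmela. Its pineal level was 0.979 of the eye level at night (interval 0.908 to 1.06) and 0.672 by day (0.620 to 0.728), and the log2 difference of -0.30 (SE 0.20, limma adjusted p 0.311) was not called. Within a library, pmelb exceeded pmela 13.5-fold at night (11.1 to 16.5) and 14.1-fold by day (11.4 to 17.7) in the pineal gland, against 1.51-fold (1.41 to 1.61) and 1.68-fold (1.57 to 1.80) in the eye. pmelb held 65.4% and 67.5% of the summed FPKM of the 11 genes in the pineal gland at night and by day, against 24.4% and 29.0% in the eye. Without it the sum was 32.9 and 18.1 FPKM in the pineal gland, against 196.9 and 137.1 in the eye. The labels do not say how reads shared by paralogs were counted.

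The proportions of the tyrosinase relatives were set side by side as well. The abundant TYRP1 gene exceeded DCT 9.86-fold at night (6.58 to 15.4) and 7.82-fold by day (4.96 to 13.0) in the pineal gland, against 4.49-fold (4.12 to 4.91) and 1.88-fold (1.73 to 2.04) in the eye. Over the minor TYRP1 gene it stood 38.1-fold (19.1 to 89.1) and 27.9-fold (13.2 to 70.4) in the pineal gland, against 36.6-fold (29.7 to 45.6) and 33.5-fold (25.9 to 44.2) in the eye. The pineal intervals of this second proportion, on 8 and 7 reads of the minor gene, were wide and held those of the eye. Whether either proportion differed between the tissues was not tested, and the first also moved between the 2 eye libraries.

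Both MITF genes had pineal libraries above the eye libraries, at low counts. Only the pineal libraries had brought the first past the filter, so it was tested because it was high there. The first gave ratios of 2.11 at night (1.13 to 4.01) and 1.88 by day (1.03 to 3.46), and the second 1.96 (1.11 to 3.49) and 1.28 (0.779 to 2.11). Their log2 differences were 0.47 (SE 0.19, limma adjusted p 0.115) and 0.41 (SE 0.20, limma adjusted p 0.182), neither called. SLC24A5 was level with the eye at night (ratio 0.994, 0.716 to 1.37) and above it by day (2.24, 1.25 to 4.13). Its log2 difference of 0.29 (SE 0.39, limma adjusted p 0.628) turned to -0.26 without the eye day library.

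Other genes of pigment cells were grouped into lists, which are described by their counts. Of 26 tested genes of melanosome assembly and transport, 0 were called above the eye and 3 below it in the pineal gland, with a median log2 difference of -0.07. Over all tested genes 9.25% were called above the eye and 14.1% below it, so the count of this list was near that background. The 3 were TRPM1 (ENSDARG00000011259), the gene of a cation channel of melanocytes and retinal bipolar cells, at 1.06 FPKM at night and 0.312 by day in the pineal gland against 25.4 and 30.3 in the eye, its relative trpm1b (ENSDARG00000103476), and GPNMB (ENSDARG00000062688). GPNMB, a relative of PMEL also made by pigment cells and macrophages, was at 3.51 and 2.02 FPKM in the pineal gland, against 29.1 and 39.9 in the eye, a log2 difference of -3.25 (SE 0.31, limma adjusted p 0.00165). Against mixed tissue the pineal gland had 5 of the 26 higher and 5 lower, and the eye 9 higher and 6 lower, beside 16.4% and 30.1% of all genes in the pineal gland and 20.7% and 28.5% in the eye. The 5 higher in the pineal gland became 10 with quantile normalization and 3 with a pseudocount of 5.

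Genes of melanocyte specification and signalling split between the tissues. Of 15 tested, 4 were called above the eye and 5 below it in the pineal gland, and 1 below it with a pseudocount of 5, beside 9.25% and 14.1% of all genes. Against mixed tissue the pineal gland had 7 of the 15 higher (4 without the pineal night library) and 3 lower, and the eye 6 higher and 1 lower (2 without the eye night library). For all genes these shares were 16.4% and 30.1% in the pineal gland, and 20.7% and 28.5% in the eye. Without the pineal night library 13 of the 15 genes were tested, so the calls lost there include those of genes no longer tested. The genes no longer tested had reached the filter only in the pineal libraries, so they were tested in the main fit because they were high there. The Kit receptor gene kitb (ENSDARG00000056133) was at 191 FPKM at night and 193 by day in the pineal gland, against 15.5 and 10.8 in the eye, a log2 difference of 3.79 (SE 0.23, limma adjusted p 0.000500). PAX3 (ENSDARG00000010192), a neural crest and dorsal neural transcription factor gene, was at 6.21 and 4.86 FPKM in the pineal gland, against 0.316 and 0.238 in the eye. PAX3 had reached the filter only in the pineal libraries, so it was tested because it was high there. TFAP2A (ENSDARG00000059279), which also acts in epidermis, was at 2.16 and 2.22 FPKM in the pineal gland, against 70.9 and 57.5 in the eye. Its log2 difference of -4.34 (SE 0.20, limma adjusted p 0.000275) moved with the skin list, of which 7 of 7 tested genes fell below the eye in the pineal gland; the part of skin RNA in it was not tested. TFAP2E (ENSDARG00000008861) was lower too, by -2.42 (SE 0.23), but it had reached the filter only in the eye libraries and was tested because it was high there. SOX10 (ENSDARG00000077467), the neural crest factor that acts upstream of mitfa, was at 15.6 and 14.7 FPKM in the pineal gland and 8.56 and 6.48 in the eye, against 1.76 and 1.27 in mixed tissue. Its log2 difference from mixed tissue was 2.69 (SE 0.20) in the pineal gland and 1.76 (SE 0.20) in the eye, both called. Between the pineal gland and the eye it was 0.94 (SE 0.20), below 2-fold on this scale and not called.

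The retinal pigment epithelium list went the other way from the melanin genes. Of its 23 tested genes, 13 were called above the eye and 0 below it in the pineal gland, beside 9.25% and 14.1% of all genes, with a median log2 difference of 1.56, beside -0.88 over the 11 melanin genes and -0.04 over all tested genes. The 4 with the largest differences handle retinoids. LRAT (ENSDARG00000037278), which esterifies retinol, was at 323 FPKM at night and 419 by day in the pineal gland, against 17.7 and 1.89 in the eye, a log2 difference of 5.65 (SE 0.72, limma adjusted p 0.00380). The retinol dehydrogenase gene rdh5 (ENSDARG00000008306) was at 813 and 675 FPKM in the pineal gland, against 19.2 and 13.0 in the eye, a log2 difference of 5.46 (SE 0.25). RGR (ENSDARG00000054890), a retinal-binding opsin gene, was higher by 3.38 (SE 0.17), and STRA6 (ENSDARG00000051874), the receptor gene for retinol-binding protein, by 3.02 (SE 0.37). Against mixed tissue the pineal gland had 17 of the 23 higher and 2 lower, and the eye 12 higher and 2 lower, where 16.4% and 20.7% of all genes were higher and 30.1% and 28.5% lower. Of the 2 lower genes 1 had reached the filter only in mixed tissue, so it was tested because it was high there. Under the alternatives 11 to 15 genes of the list were higher in the pineal gland than in the eye, and at most 1 was lower, without the eye day library. The list as a whole and the melanin genes were not compared by a test.

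**Figure D3:**
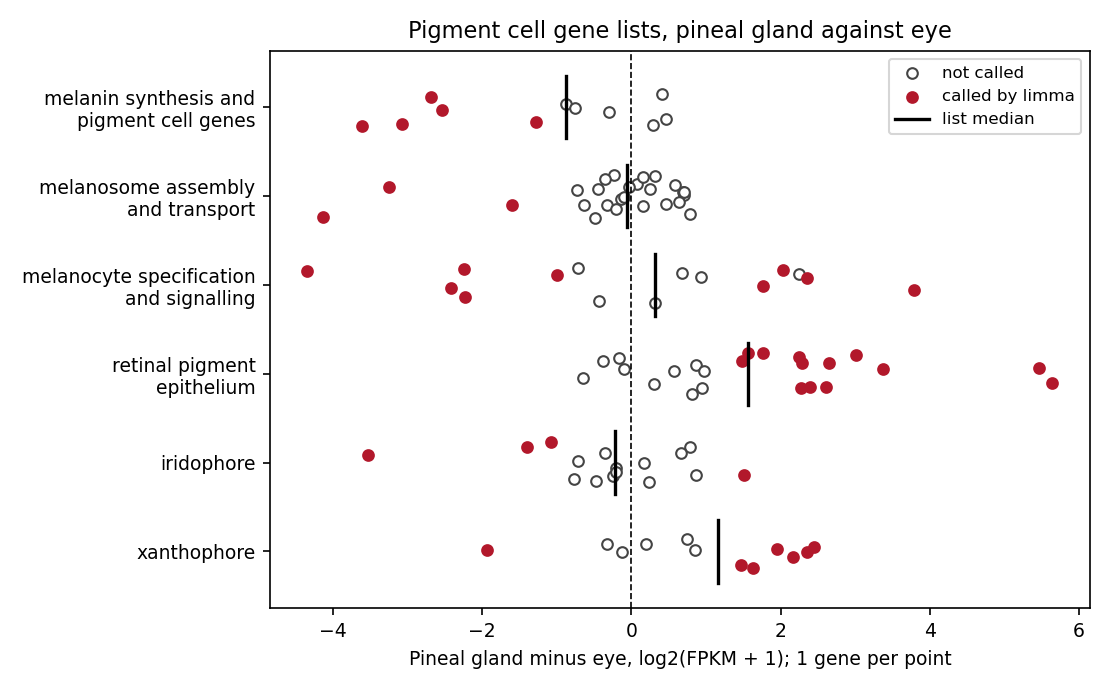
Difference between the pineal gland and the eye in log2(FPKM + 1) for the tested genes of 6 lists; each point is 1 gene, filled where limma called it, and the vertical bar is the list median. The melanin list has 5 calls, all below 0, and the pigment epithelium list 13, all above 0.

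Lists of the other fish pigment cells held calls in both directions, beside 9.25% of all genes called above the eye in the pineal gland and 14.1% below it. The counts of the iridophore list were near these shares, and its median log2 difference was -0.23, beside -0.04 over all tested genes. Iridophores are the reflective cells that stack guanine crystals, and of 16 tested genes of their list 1 was called above the eye (2 without the eye day or either pineal library) and 3 below it (1 without the eye day or the pineal day library) in the pineal gland. pnp4a (ENSDARG00000057575), a purine nucleoside phosphorylase gene used as an iridophore marker, was at 1.07 FPKM at night and 1.02 by day in the pineal gland, against 22.9 and 22.4 in the eye, a log2 difference of -3.53 (SE 0.19, limma adjusted p 0.000397). The receptor tyrosine kinase gene ltk (ENSDARG00000042861) was at 12.2 and 12.7 FPKM in the pineal gland, against 0.906 and 0.973 in mixed tissue. Its log2 difference from mixed tissue was 2.79 (SE 0.19) in the pineal gland and 2.55 (SE 0.19) in the eye, both called. Between the pineal gland and the eye ltk differed by 0.24 (SE 0.19, limma adjusted p 0.398) and was not called. Of 12 tested genes of the list for xanthophores, the yellow pigment cells, 6 were called above the eye and 1 below it (2 without the eye night library) in the pineal gland. They included csf1ra (ENSDARG00000102986), a receptor gene of xanthophores and macrophages, at 19.1 and 20.2 FPKM in the pineal gland against 2.54 and 3.66 in the eye. Of the 6 genes above the eye 1 had reached the filter only in the pineal libraries, so it was tested because it was high there. Against mixed tissue the iridophore list had 4 genes higher and 6 lower in the pineal gland and 6 higher and 5 lower in the eye, and the xanthophore list 4 and 2 in the pineal gland and 2 and 5 in the eye. With a mixed library left out the 2 xanthophore genes higher in the eye became 1 without mixed day and 3 without mixed night, and 3 without eye night. The shares of all genes above and below mixed tissue were 16.4% and 30.1% in the pineal gland, and 20.7% and 28.5% in the eye.

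Between night and day, several melanin genes were higher in the night library of both light-sensing tissues. Over the 3 tissues, limma called 0 of the 11 genes, and 0% of all 21325 tested genes were called in either direction (1506 had an unadjusted p under 0.05). voom on recovered reads called 11 of all genes and 0 of the 11 pigment genes. The log2 differences of the 11 genes ran from -0.11 to 0.86, and 1 of them, SLC24A5 at 0.86 (SE 0.32, limma adjusted p 0.679), had an unadjusted p under 0.05. Within a tissue there was 1 library per time, so the ratios that follow compare 2 libraries and have no replicate check.

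The night library was above the day library in both the pineal gland and the eye for 6 of the 11 genes, a pattern held by 28.8% of all tested genes. The abundant TYRP1 gene gave a night over day ratio of 2.17 in the pineal gland (interval 1.78 to 2.64) and 1.88 in the eye (1.78 to 2.00). In mixed tissue its ratio was 0.703 (0.176 to 2.57), on 5 reads at night and 7 by day. SLC24A5 gave 2.65 in the pineal gland (1.71 to 4.17) and 5.99 in the eye (3.69 to 10.2), the largest ratio in the eye among the 11 genes. The fibril genes moved less. pmela had a ratio of 1.73 in the pineal gland (1.31 to 2.3) and 1.26 in the eye (1.18 to 1.35). For pmelb the ratios were 1.65 (1.51 to 1.81) and 1.14 (1.06 to 1.21). Over all tested genes above 0 in both eye libraries the median ratio was 1.07, and 57.2% of the ratios exceeded 1. The pmelb interval in the eye held that median. The minor TYRP1 gene (1.59 and 1.73) and the first MITF gene (1.20 and 1.07) completed the 6, and of these 4 ratios the interval excluded 1 for the minor TYRP1 gene in the eye.

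**Figure D4:**
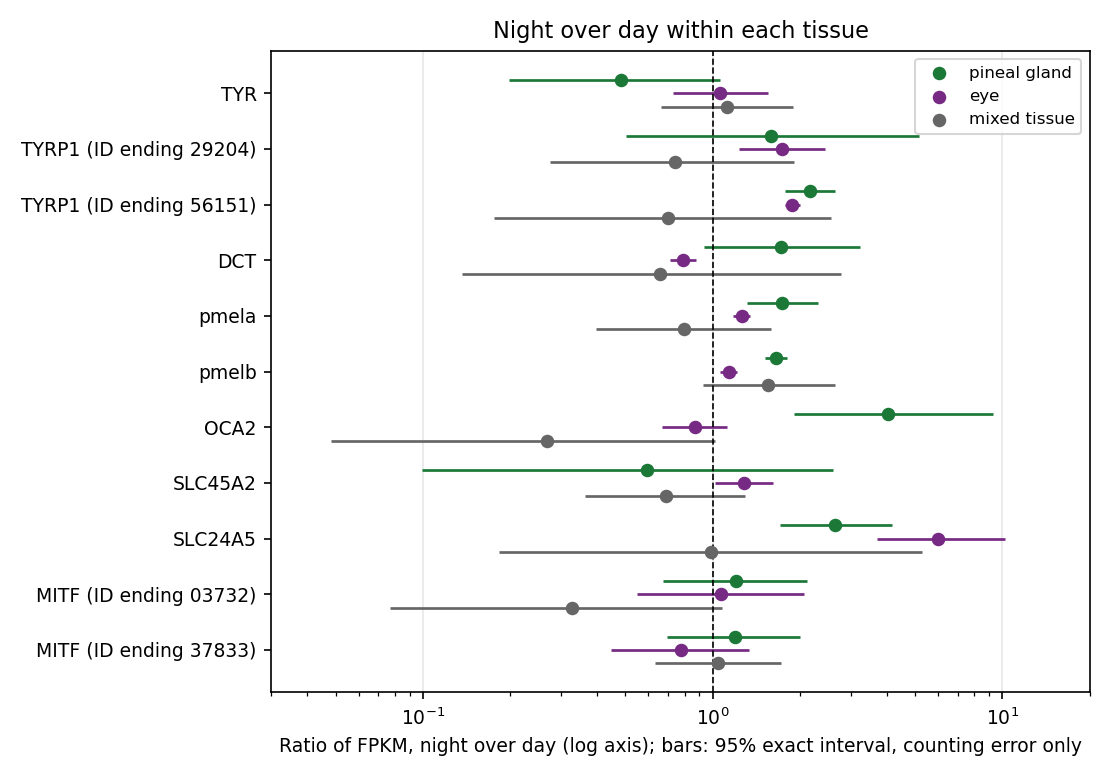
Ratio of FPKM at night over day for the 11 genes in each tissue, on a log axis with 95% exact intervals for counting error. The abundant TYRP1 gene and SLC24A5 lie to the right of 1 in the pineal gland and the eye, and all 11 intervals in mixed tissue include 1.

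DCT, OCA2, TYR, SLC45A2 and the second MITF gene had ratios on different sides of 1 in the 2 tissues. For each of them at least 1 of the 2 intervals included 1. For DCT the ratio was 1.72 in the pineal gland (0.931 to 3.22), on 26 and 21 reads, and 0.788 in the eye (0.710 to 0.874). OCA2 gave 4.03 in the pineal gland (1.91 to 9.27), on 29 reads at night and 10 by day, and 0.867 in the eye (0.670 to 1.12). TYR was at 0.481 in the pineal gland (0.198 to 1.06) and 1.06 in the eye (0.730 to 1.55). SLC45A2 gave 0.595 in the pineal gland (0.0994 to 2.61) and 1.28 in the eye (1.02 to 1.61), and the second MITF gene 1.19 (0.697 to 2.00) and 0.777 (0.447 to 1.33). Whether the change at night differed between the tissues cannot be tested with 1 library per tissue and time.

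A 2-fold ratio was counted where the higher library reached 5 FPKM. In the pineal gland 1 of 2 such pigment genes, the abundant TYRP1 gene, was higher at night and 0 were lower, where 3.03% of all such genes were higher and 3.86% lower. In the eye 0 of 5 were higher or lower, where 7.11% of all such genes were higher and 6.25% lower. In mixed tissue no pigment gene reached 5 FPKM, and 1.09% of all such genes were higher and 3.28% lower. The median night over day ratio of all tested genes was 0.989 in the pineal gland and 1.07 in the eye, and that of the 11 genes 1.65 and 1.14. Other values moved between the 2 eye libraries as well. The lens list summed to 3810 FPKM at night and 7030 by day in the eye, NEUROD2 (ENSDARG00000016854), a transcription factor gene of neurons named after its values were seen, was at 8.50 and 2.16 FPKM, and the main RPE65 gene (ENSDARG00000007480), the retinoid isomerase of the pigment epithelium, at 316 and 48.8 FPKM. In the pineal libraries the same RPE65 gene was higher than in the eye, at 765 FPKM at night and 567 by day, and the erythrocyte list summed to 153 and 249 FPKM. The part of these shifts in the pigment gene ratios was not tested.

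The genes with a profile over the 6 libraries closest to the mean of the 11 genes were named by their Euclidean distance in centred log2(FPKM + 1). The closest was the thyroid hormone receptor gene THRA (ENSDARG00000052654), at a distance of 0.165. It was at 6.87 FPKM at night and 5.29 by day in the pineal gland, 17.9 and 12.7 in the eye, and 1.99 and 2.16 in mixed tissue. DIP2C (ENSDARG00000062154), APC2 (ENSDARG00000063007), ENSDARG00000102326, AADAC (ENSDARG00000063621), NSF (ENSDARG00000007654), CPEB2 (ENSDARG00000052604), cacna1da (ENSDARG00000102773) and atp2b3a (ENSDARG00000043474) followed, up to a distance of 0.314. The 11 genes themselves lay at 1.33 to 3.68 from their own mean, farther than these genes, so the mean hides the different profiles described above.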

How the data were processed

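Poly-A RNA of 6 pooled libraries was measured. The authors deposited 1 table of FPKM values for 32105 genes. Per the submitters' processing notes, FastQC, STAR 2.3.0e, featureCounts of Subread, DESeq2 and the danRer10 build were used; the annotation release is not stated. The 3 columns of means were not used. Symbols came from a table pairing IDs with symbols (26269 IDs matched).

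The steps between FPKM values gave back whole reads: for all 27233 genes above 0 they were whole within 0.001 read, and 99.36% of values above 0 were rebuilt to within 1e-6. The units may be reads or fragments; if fragments were counted as 2 reads, intervals are too narrow. They cover counting error only.

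limma 3.58.1 (R 4.3.3) was fitted to all 6 libraries on log2(FPKM + 1). Its terms were tissue and time, with a mean trend. It took genes that reached 1 FPKM in 2 libraries (2 residual and 3.46 prior degrees of freedom). Calls needed a Benjamini-Hochberg adjusted p under 0.05 over all genes and at least 2-fold; tests were two-sided. Nothing says that pools of a tissue are replicates beyond the 2 times. Intervals used scipy 1.17.1. The script was tested on simulated data.

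The 11 genes and all lists were chosen with earlier results of these data known. Named list genes were at most 4 per list and comparison, called, by size, reaching 5 FPKM in one tissue; NEUROD2 and RPE65 are also named for their eye libraries. Closest profiles were the 10 nearest genes reaching 10 FPKM. One of them is not reported here. Of the lists, 17 symbols had no match, exorh, otx5, mlana and asip1 among them. Alternatives were other pseudocounts, filters and scalings, voom, a robust prior, other model terms and each library left out.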

Additional observations from a re-analysis of the deposited data

Results flagged for a closer look

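For 5 of the 11 genes limma called the pineal gland against the eye. That difference is also the difference between their contrasts with mixed tissue, since the mixed libraries cancel; these are the calls already given and no further evidence. On the log2(FPKM + 1) scale, pineal gland minus eye was -3.62 for DCT, -3.08 for pmela, -2.69 for the abundant TYRP1 gene (ENSDARG00000056151), -2.54 for SLC45A2 and -1.29 for the minor TYRP1 gene (ENSDARG00000029204). SLC45A2 and the minor TYRP1 gene had passed the filter on low values only through the eye libraries.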

How the results depend on the processing

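Of the 18 called tissue differences of the 11 genes, 10 kept their call in every alternative in which the gene was tested. The other 8 lost it in at least 1. None of the 18 changed sign. Among the 10 was SLC45A2 in the pineal gland against the eye, which was not tested without the eye day or the eye night library. The number of genes called in the pineal gland against mixed tissue was 5, and 2 with a pseudocount of 5. It was 7 with a pseudocount of 0.1, 6 with quantile normalization and 6 with voom, where 53.5%, 46.2% and 53.4% of all genes were called. With some of the libraries left out it was lower than 5. Against mixed tissue 8 were called in the eye, 4 with a pseudocount of 5, 5 with a filter of 5 FPKM (which tested only 5 of the genes), and 4 to 8 with each library left out. In the pineal gland against the eye 5 were called, 4 with a pseudocount of 5, and fewer with some of the libraries left out. With voom 6 were called there, beside 28.7% of all genes. Without an eye library 8 of the genes were tested, in this comparison and in those against mixed tissue. The share of all genes called fell as well with a pseudocount of 5. It went from 46.5% to 26.6% in the pineal gland and from 49.2% to 29.3% in the eye, each against mixed tissue. In the pineal gland against the eye it went from 23.4% to 11.7%. These shares also fell with some of the libraries left out. No alternative called any of the genes between night and day over all tissues (0 calls). Within a tissue, with no minimum level, 4 genes were 2-fold apart in the pineal gland (1 with the minimum), 1 in the eye (0) and 2 in mixed tissue (0). The share of all genes without a minimum was not counted. The 2 in mixed tissue were OCA2, on 3 reads at night and 11 by day, and the first MITF gene, on 4 and 12. Their intervals included 1, as did that of TYR in the pineal gland, on 9 and 26 reads. No paired analysis was possible because the labels give no replicate numbers and each tissue and time has 1 library.

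Values that changed sign were all uncalled. With quantile normalization, the difference from mixed tissue was 0.005478 for SLC45A2 and 0.4714 for TYR in the pineal gland, and 0.2985 for the second MITF gene in the eye, which was 0.02512 after median ratio rescaling. For night against day, a pseudocount of 5 gave -0.04865 for DCT, 0.0002074 for the first and 0.003114 for the second MITF gene, and 0.02942 for SLC45A2. Quantile normalization gave -0.006392 for DCT and 0.006879 for the second MITF gene, median ratio rescaling -0.001149 and 0.003563, and voom -0.2119 for DCT and 0.06841 for SLC45A2. With each library left out, the pineal gland against mixed tissue ran from -0.4006 to 0.1524 for TYR and from -0.1568 to 0.3038 for the minor TYRP1 gene, the eye against mixed tissue from -0.1884 to 0.1194 for the second MITF gene, and the pineal gland against the eye from -0.2558 to 0.8303 for SLC24A5. Night against day then ran from -0.2086 to 0.1795 for DCT, -0.1219 to 0.1865 for OCA2, 0.0366 to 0.07356 for SLC45A2, -0.2105 to 0.07091 for TYR, -0.06051 to 0.09039 for the first and -0.0861 to 0.1005 for the second MITF gene. The causes were not tested.

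Depth limits the low genes: 14 of the 66 values rested on fewer than 10 reads. The counts of the other lists under these alternatives were added after the data were seen.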
